A study of Mus musculus with 14 samples.

Results

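The genes described here are those encoded by the mitochondrial genome, taken as every symbol in the deposited count matrix that starts with mt-. The matrix held 19 of them among 23441 genes. They were all 13 protein-coding genes and both rRNA genes that the annotation places on the mitochondrial chromosome (chrM), together with 4 of its 22 tRNA genes (mt-Tq, mt-Tw, mt-Tt and mt-Tp). RNA was sequenced from bone marrow plugs flushed from the distal tibiae of male C57BL6/SJL mice aged 24 weeks, and each sample pooled 2 mice. BMAd-Pnpla2+/+ mice gave 4 samples fed ad libitum (AL) and 4 after caloric restriction (CR, 30% for 6 weeks), and BMAd-Pnpla2-/- mice gave 3 samples AL and 3 CR. All mice of both genotypes are of the BMAd-Cre line, in which FLPo expressed from the Osterix locus switches on a Cre placed at the Adipoq locus, so that recombination is directed to bone marrow adipocytes. The BMAd-Pnpla2-/- mice also carry floxed alleles of Pnpla2, which encodes adipose triglyceride lipase, and the line descends from a selected founder. In this Cre line some stromal or dendritic cells also recombine, and the Cre cassette, which the controls carry too, lowers adiponectin. The comparisons ask how diet and the loss of this lipase changed the RNA of the whole plug.

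The mitochondrial genome is a small circle transcribed from both of its strands as long precursors that span many genes and are cut at the tRNAs. It encodes 2 rRNAs, tRNAs and a few hydrophobic subunits of the respiratory chain, namely those of complex I (the mt-Nd genes), complex III (mt-Cytb), complex IV (the mt-Co genes) and complex V (the mt-Atp genes). All other subunits, and every factor that copies, transcribes or processes this genome, come from nuclear genes. Most mitochondrial genes are read from one strand, while mt-Nd6 and a few tRNAs, mt-Tq and mt-Tp among them, lie on the opposite strand.

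Sequencing gave 25282327 to 27475056 read pairs a sample, and 18658806 to 21339006 were counted on genes of the matrix without regard to strand. The 3 BMAd-Pnpla2-/- CR libraries stood apart in kind: 50.1% to 50.5% of their strand-assigned gene reads lay antisense to the annotated genes, against 4.30% to 4.62% in the other 11. Library type and group therefore cannot be told apart in any comparison with BMAd-Pnpla2-/- CR, and values below are unstranded counts unless stated. Pnpla2 itself, at 219 ± 58.4 CPM (counts scaled to library size, SD, n = 4) in BMAd-Pnpla2+/+ AL and 148 ± 21.7 (n = 3) in BMAd-Pnpla2-/- AL samples, was at 840 ± 241 (n = 4) and 224 ± 45.5 (n = 3) with CR. Adipocyte genes summed to 258 to 1564 CPM in the 7 AL samples and to 1099 to 4313 CPM with CR. Over all 14 samples, the plug was also rich in erythroid (10606 to 52077 CPM) and neutrophil genes (12787 to 34048 CPM).

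Several members exist again, almost letter for letter, in the nuclear genome, and these copies are shown first because they may bear on what could be counted. In the transcripts of GENCODE M21 (GRCm38, the build mm10), 7 pseudogenes at chr1:24611535-24616197 were at least 99% identical to mitochondrial genes. They lie in the same order and on the minus strand. Of the 6 gaps between neighbouring copies 5 have the same length as in the mitochondrial genome, and the other differs by 1 base. The start of mt-Co2 is shown as an example beside its copies on chromosome 1 (Gm28661) and chromosome 2 (Gm13341). The capitals mark the bases at which mt-Co2 and Gm13341 differ in these 80 bases, and Gm28661 differs at none.
mt-Co2 (chrM:7013-7092, + strand): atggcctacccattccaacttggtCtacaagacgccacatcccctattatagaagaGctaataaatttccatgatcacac
Gm28661 (chr1:24615486-24615565, - strand): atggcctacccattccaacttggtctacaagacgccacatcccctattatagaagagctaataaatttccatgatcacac
Gm13341 (chr2:22587883-22587962, - strand): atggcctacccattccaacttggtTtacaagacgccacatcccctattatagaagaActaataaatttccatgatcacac

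The copy was exact over 681 bases of mt-Co2, 678 of mt-Atp6 (Gm10925), 783 of mt-Co3 (Gm28437), 294 of mt-Nd4l (Gm10222) and the first 876 of mt-Nd4 (Gm28439). A pair of further genes had a copy with a single changed base: mt-Nd3 differed from Gm28438 at 1 base in 345 (T3C), and the last 483 bases of mt-Co1 differed from Gm29216 at 1 (A1066T). Positions count from 1 at the 5′ end of the mitochondrial gene, and the capital marks that base.
mt-Nd3 (chrM:9459-9491, + strand): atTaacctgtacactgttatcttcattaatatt
Gm28438 (chr1:24613087-24613119, - strand): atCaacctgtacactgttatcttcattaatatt
mt-Co1 (chrM:6390-6423, + strand): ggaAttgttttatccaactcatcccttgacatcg
Gm29216 (chr1:24616155-24616188, - strand): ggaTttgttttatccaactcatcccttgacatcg

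The members inside the copied stretch had few counts. A read pair that STAR places at more than 1 position is in no gene's count. Pairs of a gene with an exact copy can thus be counted only where they reach a base not shared with the copied stretch. Per kilobase of gene, over all 14 samples, the mean level was 4247 CPM for mt-Co1, 2439 for mt-Nd1, 2409 for mt-Cytb, 1113 for mt-Nd6, 1082 for mt-Nd5, 1031 for mt-Nd2 and 860.1 for mt-Nd4. The rRNAs stood at 369 (mt-Rnr2) and 219.8 (mt-Rnr1). By contrast, mt-Co2 stood at 5.98 CPM per kilobase, mt-Atp6 at 5.71, mt-Co3 at 3.68, mt-Nd4l at 0.746 and mt-Nd3 at 0.548. These 5 genes, which encode subunits of complexes I, IV and V, were far below the other protein-coding genes of the same chromosome, and each lies almost wholly within a copy, from 294 of the 297 bases of mt-Nd4l to 99.9% of mt-Co3. Their own counts ran from 45 to 133 per sample for mt-Co2, 29 to 186 for mt-Atp6, 22 to 107 for mt-Co3, 1 to 8 for mt-Nd4l and 0 to 10 for mt-Nd3. The chromosome 1 copies were themselves counted 2 to 203 times per sample.

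mt-Atp8, a subunit of complex V, was as low (1.88 CPM per kilobase, 0 to 20 counts) although no annotated nuclear transcript matched it at the 95% identity required. It lies between mt-Co2 and mt-Atp6, where 233 bases separate the copied stretches in the mitochondrial genome, and Gm28661 and Gm10925 are separated by 233 bases on chromosome 1 as well. The letters of that chromosome 1 interval were not examined here. With copied bases left out of the length, mt-Co1 came to 6179 and mt-Nd4 to 2361 CPM per kilobase, so mt-Nd4 came close to mt-Nd1 and mt-Cytb in place of standing below mt-Nd2. The plot of level against copied share shows the drop from mt-Co2 to mt-Nd4l. The part of the copies in the low counts was not tested on reads, and the levels of these 6 genes are not set against the other members as levels of RNA.

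**Figure D1:**
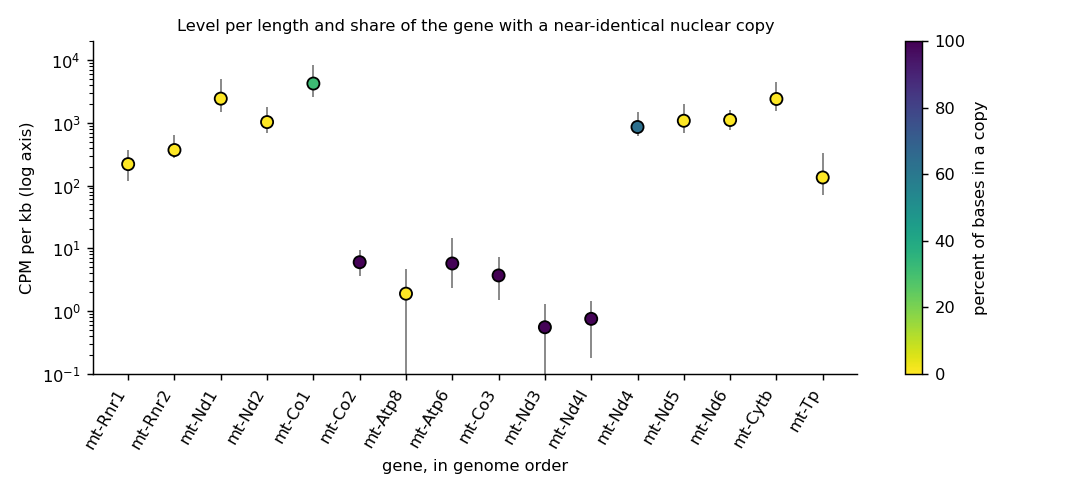
Mean unstranded level of the 16 members with any count, in CPM per kilobase on a log axis, in genome order; grey lines run from the lowest to the highest of 14 samples, down to the axis where that is 0, and colour gives the percent of the gene's bases in a nuclear copy of at least 99% identity. The 5 darkest genes, which lie almost wholly in a copy, and mt-Atp8 between them, lie between 0.548 and 5.98, and the other protein-coding genes between 860.1 and 4247.

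The tRNA genes could hardly be counted. mt-Tq, mt-Tw and mt-Tt had no unstranded count in any of the 14 samples, and the 18 tRNA genes outside the matrix had at most 3 in total. For counting error alone, a count of 0 in a sample allows up to 3 assigned pairs. It sets no limit on pairs that were present but not assigned. In the 11 stranded libraries, strand-assigned counts per sample were 19 to 53 antisense at mt-Tq and 5 to 17 sense at mt-Tt. mt-Tp, the tRNA for proline, was the only one with a level, 94 to 418 counts per sample. Genes of under 100 bases are shorter than a read, and pairs that touch a neighbouring gene count for neither. Neighbours also overlap outright: mt-Atp8 shares its last 43 bases with mt-Atp6, which a script found at chrM:7927-7969 and which is shown in capitals.
mt-Atp8 (chrM:7906-7969, + strand): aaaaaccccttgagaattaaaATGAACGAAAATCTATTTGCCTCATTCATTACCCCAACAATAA
mt-Atp6 (chrM:7927-7990, + strand): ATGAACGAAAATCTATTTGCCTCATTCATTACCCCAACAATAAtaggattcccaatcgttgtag

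The next question was from which strand the reads came, which the 11 stranded libraries can answer. At the well-counted members of the major strand, nearly every read was sense: the antisense share was 0.0730% at mt-Rnr2, 0.287% at mt-Rnr1, 0.441% at mt-Co1, 0.530% at mt-Cytb and 1.26% at mt-Nd5. At the thinly counted tRNAs of that strand it was 17.4% of 4 antisense and 19 sense reads (mt-Tw) and 6.87% of 9 and 122 (mt-Tt). mt-Nd6 (ENSMUSG00000064368.1, chrM:13552-14070, minus strand), a complex I subunit, was the reverse. It had 171081 antisense and 750 sense reads over the 11 libraries, 99.6% antisense, and the share lay between 99.2% and 99.9% in each library. mt-Tp gave 98.9% antisense (1693 of its strand-assigned reads against 18 sense), and mt-Tq 95.5% (382 against 18). The reads counted under these 3 minus-strand genes thus ran almost wholly in the direction of mt-Nd5 and mt-Cytb. Where the ends of mt-Nd5 and mt-Nd6 overlap, 14 bases belong to both, in opposite directions, as the capitals show.
mt-Nd5 (chrM:13522-13565, + strand): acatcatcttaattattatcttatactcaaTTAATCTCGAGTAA
mt-Nd6 (chrM:13552-13595, - strand): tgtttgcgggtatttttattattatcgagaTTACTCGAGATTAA
The tRNA mt-Tp is shown with its reverse complement, the direction in which 98.9% of its reads ran.
mt-Tp (chrM:15356-15422, - strand): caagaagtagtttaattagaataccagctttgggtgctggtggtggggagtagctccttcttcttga
reverse complement of mt-Tp (chrM:15356-15422, + strand): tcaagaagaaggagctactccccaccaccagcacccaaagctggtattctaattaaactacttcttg

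Sense reads of mt-Nd6, the direction of its own mRNA, numbered 17, 78, 72 and 101 in the 4 BMAd-Pnpla2+/+ AL libraries and 67, 115, 124 and 35 in the 4 CR libraries. The BMAd-Pnpla2-/- AL libraries had 59, 42 and 40. The groups overlapped, and edgeR's quasi-likelihood test on the reverse-strand counts of the 11 libraries gave a log2 fold change of 0.22 for CR in BMAd-Pnpla2+/+ mice (adjusted p = 0.747). The antisense share of mt-Nd6 was 0.184 percentage points higher in BMAd-Pnpla2+/+ CR than in AL samples (two-sided exact permutation test over samples, p = 0.343) and 0.253 higher in BMAd-Pnpla2-/- than in BMAd-Pnpla2+/+ mice AL (exact p = 0.229), and the samples overlapped in both. In the 3 BMAd-Pnpla2-/- CR libraries the antisense share was 67.2%, 68.4% and 70.3% at mt-Nd6, whereas mt-Co1, mt-Cytb and mt-Nd5 stood at 49.6%, 49.2% and 48.9%. These libraries keep no strand, so their share at mt-Nd6 is not set against the other groups.

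**Figure D2:**
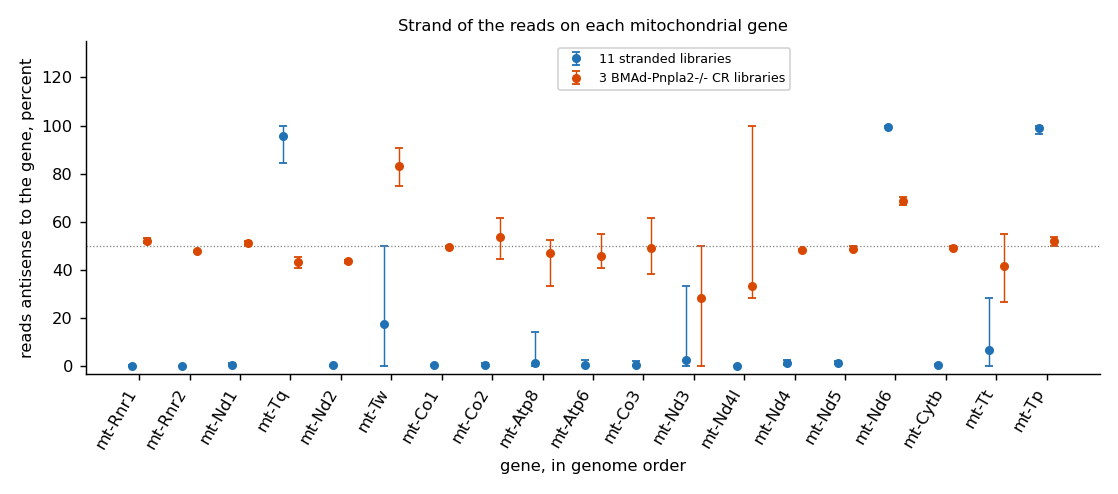
Percent of strand-assigned reads that ran antisense to each member, in genome order, pooled over the 11 stranded libraries (blue) and the 3 BMAd-Pnpla2-/- CR libraries (orange); bars run from the lowest to the highest library and the dotted line marks 50%. In the stranded libraries mt-Tq, mt-Nd6 and mt-Tp lie at 95.5% to 99.6% and the well-counted other members near 0.

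The share of the plug's reads on mitochondrial genes was compared first, and its CR samples lay above the AL samples in both genotypes, without passing adjustment. In BMAd-Pnpla2+/+ mice the 19 genes held 1.14%, 1.38%, 1.14% and 1.41% of gene reads AL, and 1.47%, 1.81%, 2.28% and 1.77% with CR. Every CR sample lay above every AL sample. The means were 1.27% ± 0.147 and 1.83% ± 0.334 (SD, n = 4 each), a difference of 0.560 percentage points or 1.44-fold, with p = 0.0286 in the exact permutation test, the smallest p that 4 against 4 samples allow. Adjusted over the 11 share tests made, p was 0.157. In BMAd-Pnpla2-/- mice the share was 1.36%, 1.62% and 1.47% AL and 1.90%, 3.30% and 2.21% with CR. The groups again did not overlap, and the difference was 0.982 percentage points or 1.66-fold (exact permutation test, p = 0.1, the smallest possible with 3 against 3, and 0.359 adjusted over the 11 tests). Replicate 2 of BMAd-Pnpla2-/- CR, at 3.30%, weighed most, and without it the difference was 0.567 points. In bulk samples, fewer cells of a type and less RNA per cell cannot be told apart, and neither can more of either.

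Between genotypes the share was not separated. BMAd-Pnpla2-/- AL samples lay 0.217 percentage points above BMAd-Pnpla2+/+ AL samples (exact p = 0.171) and BMAd-Pnpla2-/- CR samples 0.639 above BMAd-Pnpla2+/+ CR samples (exact p = 0.171), with overlapping samples in both. Without BMAd-Pnpla2-/- CR replicate 2 the latter difference was 0.225. The diet effects of the genotypes differed by 0.422 points (genotype permuted within diet, exact p = 0.491), and by 0.00770 without that library. The smallest p that 3 against 4 samples allow is 0.0571.

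**Figure D3:**
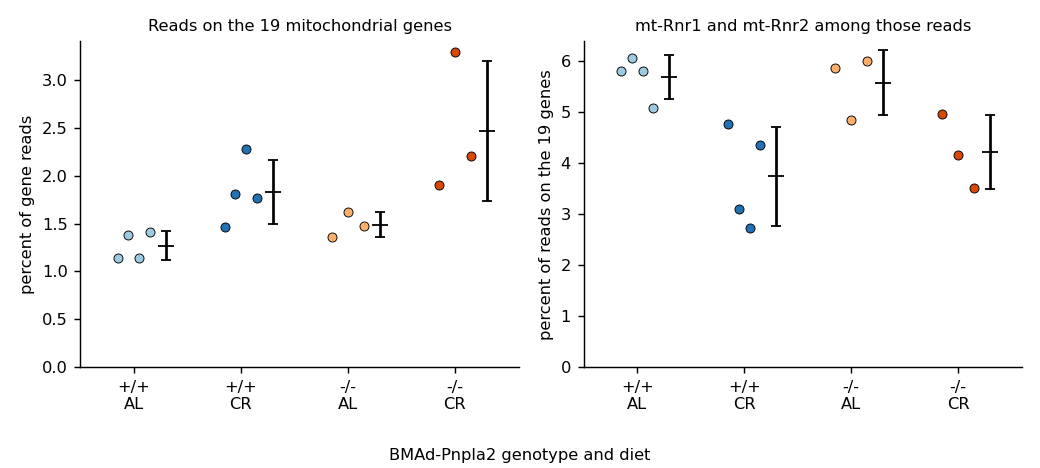
Left, unstranded reads on the 19 mitochondrial genes as a percent of all gene reads; right, reads on mt-Rnr1 and mt-Rnr2 as a percent of the reads on those 19 genes; each point is 1 sample and the bar beside it the mean with its SD (n = 4, 4, 3 and 3). The left share lies between 1.14% and 1.41% in BMAd-Pnpla2+/+ AL and between 1.47% and 2.28% with CR, and replicate 2 of BMAd-Pnpla2-/- CR is at 3.30%.

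Single genes were then compared in 1 edgeR model of all 4 groups. Of the 19 members 14 passed the filter on low counts, all but mt-Nd3, mt-Nd4l, mt-Tq, mt-Tw and mt-Tt. In BMAd-Pnpla2+/+ mice, CR raised 4 of them and lowered none at an adjusted p under 0.05, where 15% of the 17494 genes tested were called higher and 26.0% called in either direction. The 4 are 28.6% of the 14, close to the share called in either direction. They include mt-Nd6, of whose reads 99.6% ran antisense in the 11 stranded libraries, so that call does not show a rise of its own mRNA. The study's own criteria, which ask in addition for a log2 fold change beyond 1 in either direction, were met by 0 members and by 9.19% of all genes. The median log2 fold change of the 14 was 0.41, beside 0.00 over all genes tested.

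Of the complex I genes, mt-Nd5, a core subunit of the proton-pumping arm, was at 1349, 1411, 1241 and 1527 CPM AL and at 1761, 2224, 2673 and 2132 CPM with CR. All CR samples were above all AL samples, and mt-Nd5 rose by a log2 fold change of 0.67 (SE 0.18, adjusted p = 0.0172, edgeR). mt-Nd1, which lies in the membrane arm near the quinone site, went from 1418, 1879, 1451 and 1744 to 2023, 2587, 2968 and 2360.1 CPM. Here too the groups stood apart, with a log2 fold change of 0.61 (SE 0.19, adjusted p = 0.0297, edgeR).

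Reads under mt-Nd6 went from 529, 436, 398 and 511 to 672, 833, 771 and 617 CPM, a log2 fold change of 0.63 (SE 0.16, adjusted p = 0.0167, edgeR). By the strand counts above, these reads run antisense to mt-Nd6, and the ratio of mt-Nd6 to mt-Nd5 reads was 33.9% ± 3.70 AL and 33.3% ± 5.15 with CR (SD, n = 4). mt-Nd2 was at 706 to 920.5 CPM AL and 927 to 1344 with CR. Its groups did not overlap, but at a log2 fold change of 0.46 it did not pass (adjusted p = 0.0715, edgeR). For mt-Nd4, at 854 to 1006 CPM AL and 939.8 to 1484 with CR, the groups overlapped and the log2 fold change was 0.43 (adjusted p = 0.0814, edgeR). On reverse-strand counts of the 11 stranded libraries both passed, mt-Nd2 at 0.45 (adjusted p = 0.0351) and mt-Nd4 at 0.44 (adjusted p = 0.0385).

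Complex III has a single mitochondrial subunit, mt-Cytb, the cytochrome b that carries its quinone sites. It was at 1778, 2097, 1836 and 2359 CPM AL and 2544, 3080.5, 3682 and 2767 CPM with CR. The groups did not overlap, and it rose by a log2 fold change of 0.58 (SE 0.19, adjusted p = 0.0392, edgeR). mt-Co1, the catalytic subunit of complex IV and the member with most reads, was at 3973, 5784, 4529.6 and 5266 CPM AL and 5102, 6012, 7823 and 6762 with CR. The groups overlapped, and its log2 fold change of 0.39 did not pass (SE 0.19, adjusted p = 0.13, edgeR). The thinly counted mt-Co2, mt-Co3, mt-Atp6 and mt-Atp8 ran from -0.14 to 0.71 with SE of 0.31 to 0.60, and none passed.

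The rRNA genes did not follow the protein-coding ones. mt-Rnr1, the RNA of the small ribosomal subunit, was at 181, 261, 179.8 and 206 CPM AL and 161, 112, 129 and 201 CPM with CR, overlapping, with a log2 fold change of -0.46 (SE 0.21, adjusted p = 0.123, edgeR). mt-Rnr2, the RNA of the large subunit, was at 489 to 606 CPM AL and 442 to 571 with CR, with a log2 fold change of -0.06. Together they made up 5.80%, 6.05%, 5.80% and 5.07% of mitochondrial reads AL and 4.76%, 3.10%, 2.73% and 4.34% with CR. Every CR sample was below every AL sample. The difference was -1.95 percentage points (exact permutation test, p = 0.0286, the smallest possible, and 0.157 adjusted over the 11 share tests). The ratio of mt-Rnr1 to mt-Rnr2 reads was 39.3% ± 3.34 AL and 29.8% ± 4.16 with CR (SD, n = 4). CR replicates 2 and 3, lowest in the rRNA share, also had the least erythroid RNA, 11421 and 10606 CPM summed over 8 genes against 33961 and 51667 in replicates 1 and 4, and the part of this in the result was not tested. These are mRNA libraries, so the rRNA share is not a share of the cell's RNA.

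**Figure D4:**
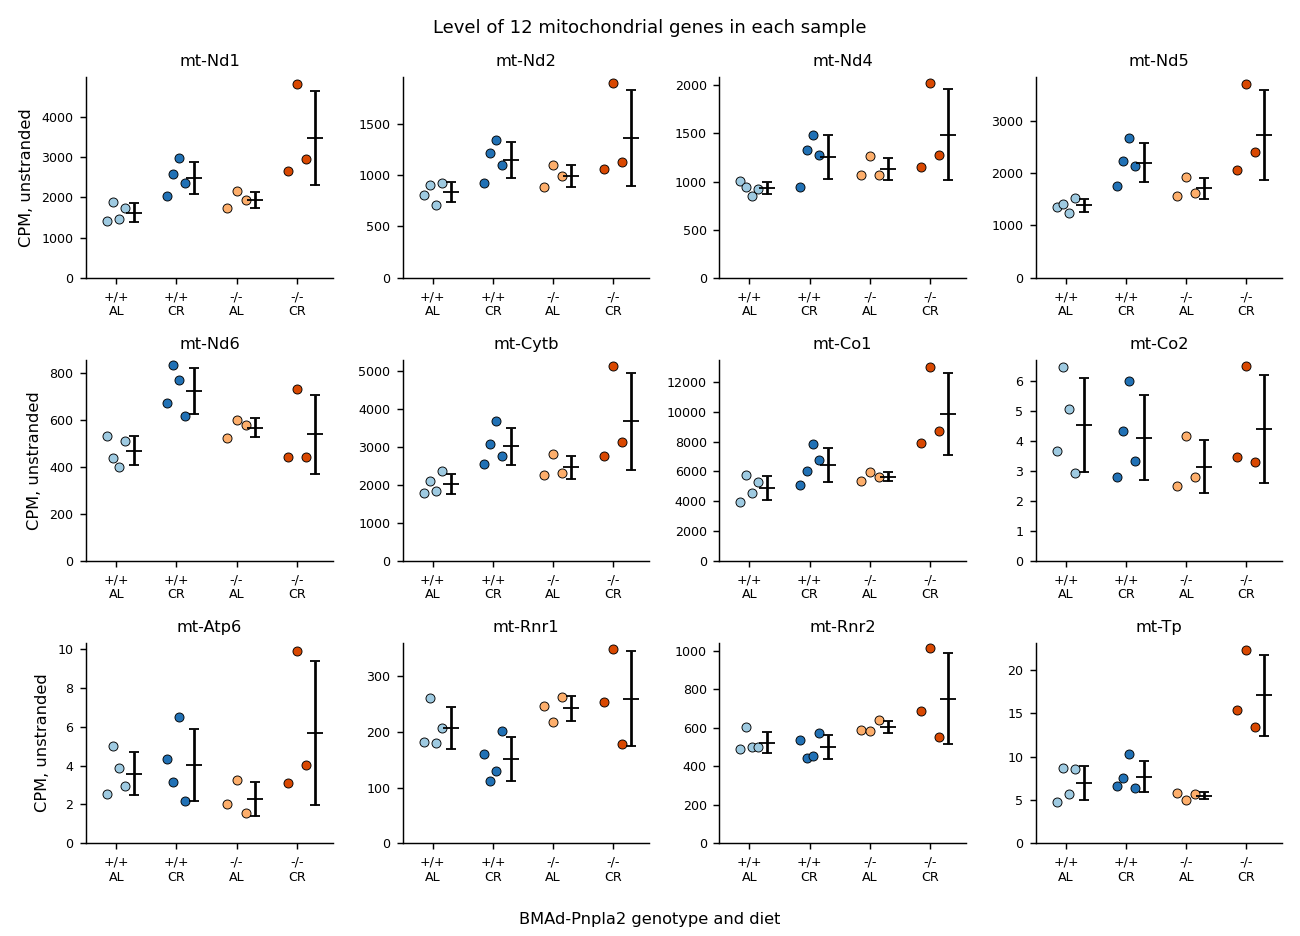
Unstranded CPM of 12 members in each of the 14 samples (points), by genotype and diet, with mean and SD beside them (n = 4, 4, 3 and 3); every axis starts at 0. In BMAd-Pnpla2+/+ mice the CR points of mt-Nd1, mt-Nd5, mt-Nd6 and mt-Cytb all lie above the AL points, and replicate 2 of BMAd-Pnpla2-/- CR is the highest of its group in all 12 panels.

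The number of members called for CR in BMAd-Pnpla2+/+ mice changed as single libraries were left out. So did the number over all genes, 2628 higher of 17494 with every sample. Members called were 0 without AL replicate 3 (1479 of 17444 genes higher) and 1 (mt-Nd6, counted from mostly antisense reads) without CR replicate 3 (1432 of 17362). They were 2 (mt-Nd5 and mt-Nd6) without AL replicate 1 (2502 of 17447) or without CR replicate 2 (1596 of 17393). The same 2 were called without BMAd-Pnpla2-/- AL replicate 3 (2151 of 18017). Without BMAd-Pnpla2-/- CR replicate 2, members called were 6 (2378 of 18010 genes higher).

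In BMAd-Pnpla2-/- mice CR again raised 4 of the 14 tested members and lowered none, where 6.01% of all genes were called higher, 5.57% lower and 11.6% in either direction. The 4 were mt-Nd1, mt-Nd5, mt-Co1 and mt-Tp, and only mt-Tp met the study's criteria, which 3.52% of genes met. Of the mt-Tp reads in the 11 stranded libraries, 98.9% ran antisense, so that call does not show a rise of the tRNA itself. The median log2 fold change of the 14 was 0.63, beside 0.05 over all genes. Since the CR libraries of this genotype were also of another kind, diet and library type cannot be told apart in these values.

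mt-Nd1 went from 1745, 2154 and 1923 CPM AL to 2650.4, 4819 and 2962 CPM with CR (log2 fold change 0.84, SE 0.22, adjusted p = 0.0267, edgeR). mt-Co1 went from 5348, 5957 and 5638 to 7907, 13061 and 8707 CPM (0.81, SE 0.22, adjusted p = 0.0314, edgeR). For both, as for mt-Nd5 (1570.3, 1934 and 1618 against 2066, 3712 and 2410.4 CPM, log2 fold change 0.68, adjusted p = 0.0476, edgeR), every CR sample was above every AL sample and replicate 2 was the highest.

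mt-Tp went from 5.78, 5.02 and 5.68 to 15.4, 22.3 and 13.5 CPM, groups that did not overlap, with a log2 fold change of 1.63 (SE 0.26, adjusted p = 0.00741, edgeR). In BMAd-Pnpla2+/+ mice mt-Tp was at 4.80 to 8.66 CPM AL and 6.37 to 10.3 with CR (log2 fold change 0.15, adjusted p = 0.647), so the 3 libraries without strand were the highest of all 14. mt-Cytb (2259.7, 2821 and 2317 against 2763, 5137 and 3134 CPM) overlapped and did not pass, at 0.58 (adjusted p = 0.101, edgeR). Reads under mt-Nd6 were at 522, 599.7 and 577 CPM AL and 444, 734 and 439.9 with CR, a log2 fold change of -0.07 (adjusted p = 0.842, edgeR). Relative to mt-Nd5 they stood at 33.3% ± 2.34 AL and 19.8% ± 1.61 with CR (SD, n = 3).

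Among the thinly counted genes of this genotype, mt-Atp8 (2.62, adjusted p = 0.0592), mt-Co3 (1.09, adjusted p = 0.0679) and mt-Atp6 (1.31, adjusted p = 0.0901) had larger log2 fold changes than mt-Nd1 and did not pass. mt-Rnr1 (218 to 263 CPM AL, 177 to 348 with CR) and mt-Rnr2 (586 to 639 and 554 to 1015) overlapped, at 0.10 and 0.31. The rRNA share of mitochondrial reads was 5.56% ± 0.638 AL and 4.21% ± 0.719 with CR (SD, n = 3), with overlapping samples (exact permutation test, p = 0.2). Of the 4 calls, mt-Tp alone was left without AL replicate 1, without AL replicate 3, without CR replicate 2, without CR replicate 3, and in a fit of the 2 groups alone. Without AL replicate 2, mt-Nd1 and mt-Tp were called. The genes called higher over all genes changed too, from 1051 of 17494 with every sample. They were 131 of 18024 without AL replicate 1, 171 of 18017 without AL replicate 3 and 1035 of 18018 without AL replicate 2. They were 474 of 18010 without CR replicate 2 and 121 of 17951 without CR replicate 3. In the fit of the 2 groups alone they were 1124 of 16406.

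**Figure D5:**
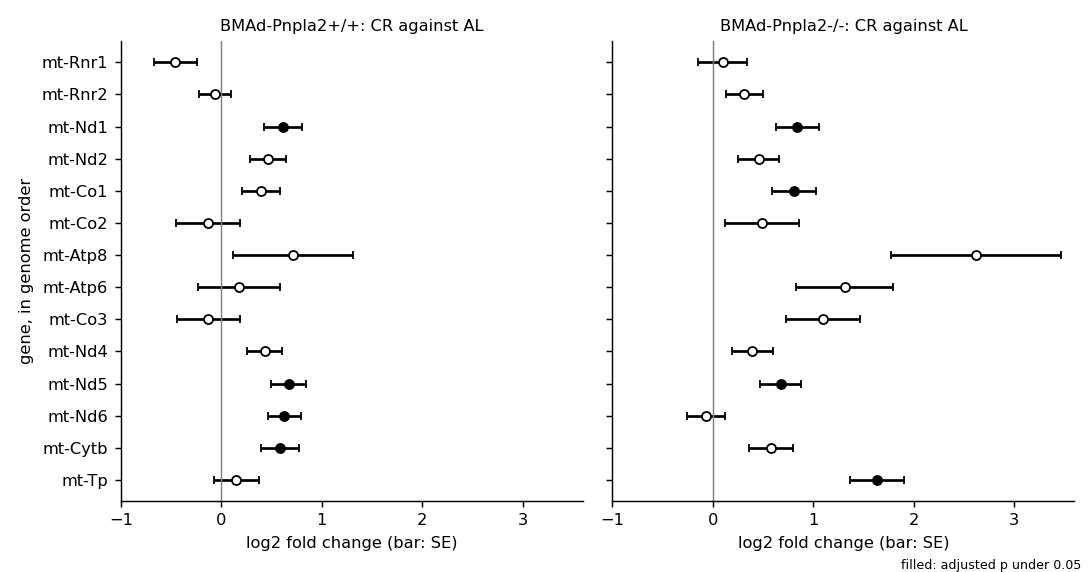
Log2 fold change with its SE of CR against AL for the 14 tested members, in genome order, in BMAd-Pnpla2+/+ (left) and BMAd-Pnpla2-/- mice (right), from edgeR; filled points have an adjusted p under 0.05. The 4 filled points on the left lie between 0.58 and 0.67 and those on the right between 0.68 and 1.63, and the widest bars belong to mt-Atp8.

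No member was called between the genotypes by edgeR. AL, 0 of the 14 were called, as were 0.0% of all genes. An unadjusted p under 0.05 was reached by 1 member (mt-Co3, -0.76) and by 694 of all 17494 genes. DESeq2 also called 0 members, and over all 23271 genes it called 3 higher and 14 lower. The log2 fold changes ran from -1.75 for mt-Atp8 to 0.31 for mt-Nd5, with a median of 0.22 beside -0.01 over all genes. The samples of the genotypes did not overlap at mt-Nd5 (1241 to 1527 CPM against 1570.3 to 1934, 0.31, SE 0.19) and mt-Nd4 (854 to 1006 against 1064 to 1262, 0.28, SE 0.19). They overlapped at the remaining tested members, among them mt-Nd1 at 0.26 (SE 0.20) and mt-Co1 at 0.21 (SE 0.20). How many of all genes had samples without overlap in this comparison was not counted, so no weight is put on these members.

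With CR, 0 members were called by edgeR against 0.0171% of all genes (0.00572% higher, 0.0114% lower, and 0.0114% at the study's criteria). An unadjusted p under 0.05 was reached by 6 of the 14 members and by 4052 of all 17494 genes. DESeq2 called 4 members (mt-Tp, mt-Rnr1, mt-Rnr2 and mt-Co1, all higher in BMAd-Pnpla2-/- CR), in a fit that called 582 genes higher and 889 lower of 14249. By edgeR mt-Tp stood at 1.15 (SE 0.24, adjusted p = 0.0541), mt-Rnr1 at 0.79 (adjusted p = 0.0864), mt-Rnr2 at 0.59 (adjusted p = 0.0862) and mt-Co1 at 0.62 (adjusted p = 0.105). Leaving out BMAd-Pnpla2+/+ CR replicate 4 gave 3 calls among the members, while over all 17441 genes tested it gave 1141 higher and 951 lower. Leaving out BMAd-Pnpla2+/+ CR replicate 3 gave 1 member among 115 genes higher and 141 lower, and leaving out BMAd-Pnpla2+/+ AL replicate 2 gave 1 among 150 higher and 90 lower. The difference between the diet effects of the genotypes was called at 0 members by edgeR, as at 0.0% of all genes. Its unadjusted p was under 0.05 at 3 members and at 1824 of all 17494 genes. DESeq2 called 1 member, mt-Tp, where it called 23 genes higher and 20 lower of 16051.

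The deposited matrix mixes 2 kinds of count, which matters most for the minus-strand genes. It equals the reverse-strand count at all 23441 genes in the 11 stranded libraries and the unstranded count in the 3 BMAd-Pnpla2-/- CR libraries. At mt-Nd6 it therefore holds 17 to 124 counts in the 11 and 8312, 13775 and 8850 in the 3. Taken as deposited, mt-Nd6 had a log2 fold change of 7.72 for CR in BMAd-Pnpla2-/- mice (adjusted p = 8.13e-07, edgeR) and 7.09 between genotypes with CR (adjusted p = 3.39e-07, edgeR). From unstranded counts the same differences were -0.07 and -0.42. mt-Tp moved likewise, from 1.63 to 7.46, and mt-Tt, whose unstranded count is 0 in every library, came to -6.57.

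The nuclear genes that complete the same complexes were not among those called higher with CR in BMAd-Pnpla2+/+ mice. Of 71 nuclear subunits of complexes I, III, IV and V, all tested, 0 were higher and 16 lower, where 10.9% of all genes were lower, with a median log2 fold change of -0.18 beside 0.41 for the mitochondrial members. In complex I, 7 of 36 were lower, from Ndufb7 (-0.53, adjusted p = 0.00951) to Ndufa11 (-0.27). In complex III, Uqcrh alone of 9 was lower (-0.58, adjusted p = 0.0037). In complex IV, 3 of 11 were lower, from Cox5b (-0.42, adjusted p = 0.0143) to Cox7a2l (-0.23), and in complex V 5 of 15, from Atp5k (-0.72, adjusted p = 0.01) to Atp5c1 (-0.22). None of the 4 subunits of complex II, which has no mitochondrial gene, was called.

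In BMAd-Pnpla2-/- mice 1 of the 71 was higher with CR and 8 were lower, where 6.01% of all genes were higher and 5.57% lower, with a median of -0.07. The exception was Ndufc2, a complex I subunit (0.62, adjusted p = 0.0261, edgeR). Those lower were 5 of complex I, from Ndufa6 (-0.56) to Ndufa7 (-0.40), and 3 of complex V, from Atp5k (-0.95, adjusted p = 0.0126) to Atp5e (-0.51). Sdhb of complex II was lower as well (-0.34). Between the genotypes 0 of the 71 were called on either diet.

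The nuclear genes of mitochondrial gene expression are read against the shares of all genes called in either direction, 26.0% for CR in BMAd-Pnpla2+/+ mice and 11.6% in the other genotype. Of 10 genes of mitochondrial transcription, among them the polymerase Polrmt and the packaging factor Tfam, 1 was lower with CR in BMAd-Pnpla2+/+ mice (Mterf1b, a terminator-family gene with a near-identical paralogue, -0.88) and 1 higher in BMAd-Pnpla2-/- mice (Mterf3, 0.47). Of 10 replication and nucleoid genes, the polymerase Polg was lower in BMAd-Pnpla2+/+ mice (-0.28, adjusted p = 0.0167). Of 19 tested genes of RNA processing and stability, the granule protein Grsf1 was higher in BMAd-Pnpla2+/+ mice (0.33, adjusted p = 0.0176) and Fastkd1 in BMAd-Pnpla2-/- mice (0.70, adjusted p = 0.0155).

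Of 10 tested regulators of mitochondrial biogenesis, the coactivators Ppargc1a (1.10, adjusted p = 0.0446) and Ppargc1b (0.74, adjusted p = 0.038) were higher with CR in BMAd-Pnpla2+/+ mice, and Gabpb1 (-0.47) and Nrf1 (-0.45), which belong to factors that bind promoters of respiratory genes, were lower. Ppargc1a was low in level, at 1.24 ± 0.700 CPM AL and 2.68 ± 0.917 with CR (SD, n = 4). In BMAd-Pnpla2-/- mice Gabpa was higher (0.36, adjusted p = 0.0287), while Ppargc1a stood at 1.46 (adjusted p = 0.0605) and Ppargc1b at 0.21 (adjusted p = 0.667). Perm1 stood at 0.24 and 0.03 in the 2 genotypes and did not pass.

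Genes of several cell types were called with CR as well. All 6 adipocyte genes were higher with CR in both genotypes, and their sum rose from a median of 698 to 3689 CPM in BMAd-Pnpla2+/+ and from 289 to 1639.6 CPM in BMAd-Pnpla2-/- samples. In BMAd-Pnpla2+/+ mice 3 of 4 endothelial, 2 of 4 stromal and 3 of 6 osteoblast genes were also higher, and 5 of 8 neutrophil genes lower. Of all genes, 15% were called higher and 10.9% lower there. In BMAd-Pnpla2-/- mice 1 of 4 stromal genes was higher, and 0 endothelial, osteoblast or neutrophil genes were called. Of all genes, 6.01% were called higher and 5.57% lower in that genotype. Of 7 B cell genes 1 was lower in each genotype. Of 8 erythroid genes 0 were called in either genotype, with sums of 18371 to 33791 CPM AL and 10606 to 51667 CPM with CR in BMAd-Pnpla2+/+ mice. CR replicates 2 and 3, which had the least erythroid RNA of that genotype, also had its highest mitochondrial shares (1.81% and 2.28%). They had its highest mt-Nd1, mt-Nd5 and mt-Cytb as well. CR replicate 4 of that genotype, at 51667 CPM of erythroid genes, had a share of 1.77%. Elsewhere the order was another: BMAd-Pnpla2-/- CR replicate 2 had the most erythroid RNA (52077 CPM) and the largest share (3.30%) of the 14 samples. Of the 4 brown adipocyte genes, 1 of 2 tested was higher with CR in BMAd-Pnpla2+/+ mice and 0 of 2 in BMAd-Pnpla2-/- mice. Ucp1 was at 0.231 CPM or less in every sample, and the 4 genes summed to 7.86 to 11.8 CPM. Skeletal muscle genes summed to 3.89 to 22.1 CPM in the 11 stranded libraries and to 6.30, 33.3 and 114 CPM in BMAd-Pnpla2-/- CR replicates 1, 2 and 3. Replicate 2 has the largest mitochondrial share, and replicates 2 and 3 both lie above the other 12 samples in muscle genes. The part of these cell types in the mitochondrial results was not tested.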

How the data were processed

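From the total RNA of 14 marrow plug samples, stranded mRNA libraries were made, per the study's methods, and sequenced as pairs of 100-base reads. How mRNA was selected is not given in the sources used here. The counts of rRNA and tRNA genes are those left in such libraries. The authors deposited gene counts made with STAR against mm10: for each sample unstranded, first-strand and reverse-strand counts, and a matrix of 23441 genes. The annotation release is not given in the sources used here. Per the labels, FastQC 0.11.9 and DESeq2 were also used. A pair at several positions, or overlapping 2 genes, is in no gene's count, and multimapping pairs made up 5.78% to 11.3% of a library. No per-sample column was left unmapped.

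Unstranded counts of the matrix genes were used here, because 3 libraries keep no strand. Genes passed edgeR's filterByExpr, libraries were scaled by TMM (CPM), and the 4 groups were fitted in 1 robust quasi-likelihood model (edgeR 4.0.16, R 4.3.3) with Benjamini-Hochberg adjustment over 17494 genes. A gene was called at an adjusted p under 0.05. Shares of reads were compared by two-sided exact permutation tests over samples (scipy 1.17.1), adjusted over 11 tests. Nothing in the labels ties the samples to more than separate pools of 2 mice, and p-values measure the spread between pools.

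Sequences, coordinates and gene types are from GENCODE M21 (GRCm38), and transcripts of at least 95% identity over at least 60 bases were found with blastn 2.17.0, those of at least 99% being called near-identical. Every member is named or counted. From each nuclear list the called genes with the largest and smallest change are named, and Ppargc1a, Ppargc1b and Perm1 whatever their values (Esrra was not analysed here). The members and lists were chosen with earlier results of these data known. The fit was also run on simulated counts with the real means, for CR against AL. In BMAd-Pnpla2+/+ mice (17198 genes) it found 84.4% of 96 genes changed 2-fold and 95.2% of 104 changed 4-fold, with 10 false calls. In BMAd-Pnpla2-/- mice (17179 genes) it found 79.6% of 108 and 98.9% of 92, with 2 false calls. Changed genes were drawn above a floor in level, and changes under 2-fold were not simulated. The shares found therefore do not cover thinly counted members or smaller changes. Alternatives were DESeq2 1.42.0, other scalings, filters, gene sets and strands, a replicate block, fits of the groups compared alone, and each sample left out in turn. Limits that a count of 0 allows cover counting error only.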

Additional observations from a re-analysis of the deposited data

Results flagged for a closer look

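In BMAd-Pnpla2+/+ AL samples, mt-Rnr2 stood apart in replicate 2, at 606 CPM against 489 to 502 in the others. In the same group the antisense share of mt-Nd6 reads stood apart in replicate 1, at 99.9% against 99.2% to 99.3%, where 17 reads were sense. These were 2 of 38 groups of values examined, and chance marks about 5% of groups.

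Some tRNA genes outside the matrix had more than 3 strand-assigned reads summed over the 11 stranded libraries, although their unstranded counts were at or near 0. Antisense reads numbered 391 at mt-Te, 361 at mt-Ts1, 101 at mt-Ty and 76 at mt-Ta, all on the minus strand, as are mt-Nd6 and mt-Tp. Sense reads numbered 11 at mt-Tm, 5 at mt-Ti and 5 at mt-Ty. These genes have no count in the matrix and entered no comparison.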

How the results depend on the processing

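In BMAd-Pnpla2+/+ mice, the count of 4 members called for CR moved by less than 1.5 times under DESeq2, other scalings, filters, gene sets and strands. It lay between 0 and 6 with each sample left out, where the genes called higher over all genes lay between 1432 and 3203. In BMAd-Pnpla2-/- mice the 4 became 7 with DESeq2 (mt-Atp6, mt-Atp8 and mt-Co3 added, 1336 of 18307 genes higher) and 7 from the deposited matrix (3 shared, 1797 of 17509 higher). The 4 became 1 with the groups fitted alone (1124 of 16406 higher). With each sample left out they ran from 1 to 5, where the genes called higher over all genes ran from 121 to 1313. Between genotypes with CR the 0 became 4 with DESeq2 (582 of 14249 genes higher, 889 lower) and 6 from the matrix (1190 of 17509 higher, 1261 lower), and 0 to 3 with each sample left out. For the difference of diet effects 1 was called with DESeq2 (23 genes higher, 20 lower) and 3 from the matrix (211 higher, 467 lower). The matrix gave mt-Nd6 log2 fold changes of 7.72 for CR in BMAd-Pnpla2-/- mice, 7.09 between genotypes with CR and 7.51 for the difference. AL, it gave -0.42 between genotypes, as did reverse-strand counts, against 0.27 unstranded. These follow from the strand counted. The CR difference of mt-Nd6 in BMAd-Pnpla2-/- mice lay between -0.36 and 0.054 with each sample left out, turning to 0.049 without CR replicate 1 and 0.054 without CR replicate 3.

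With each sample left out, the rise of the mitochondrial share with CR in BMAd-Pnpla2+/+ mice lay between 0.411 and 0.680 percentage points and the change of the rRNA share between -2.29 and -1.61, each with exact p = 0.0571, the smallest possible. The rRNA share between genotypes AL lay between -0.332 and 0.251 and was 0.00872 without BMAd-Pnpla2+/+ AL replicate 2. Library totals moved the median of all genes for CR in BMAd-Pnpla2-/- mice to 0.12.

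Same-numbered samples correlated at -0.374 to 0.326 over 19 pairs, 7 of them over 0.1. Samples with different numbers were not compared in this way, so these values cannot tell whether replicate numbers pair the samples. With a replicate block 4 members were called for CR in each genotype and 0 in the other comparisons. With 3 or 4 samples a group, differences of about the size of their error cannot be detected.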
